A study of Homo sapiens with 9 samples.

Results

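The genes described here supply a cell with reduced thiols: SLC7A11 and SLC3A2 (cystine uptake), GCLC, GCLM and GSS (glutathione synthesis), GSR, TXNRD1 and SRXN1 (reduction of glutathione, thioredoxin and peroxiredoxins) and NQO1 (quinone reduction). All probe sets that the array annotation maps to 1 of these 9 symbols and to no other were taken, which gave 20 probe sets of 54613 in the series, or 9 genes of 19775. They were measured in Huh7, a human hepatocarcinoma cell line, on 9 arrays in 3 groups of 3, which the labels call biological replicates. Each group received siRNA at a final concentration of 20 nM with a lipid reagent: a scramble sequence in the controls, siRNA against the subunits of serine palmitoyltransferase (SPTLC123) in the second group, and siRNA against DEGS1 in the other. Serine palmitoyltransferase opens de novo ceramide synthesis and DEGS1, dihydroceramide desaturase, closes it. All groups, controls included, were transfected; the labels name 72 h after transfection, whereas the protocol adds conditioned medium at 72 h and harvests 24 h later. The question put by the design is how expression differs when the first or the last step is silenced, and ceramide itself was not analysed here.

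Cystine enters cells in exchange for glutamate through a transporter made of the light chain SLC7A11 and the heavy chain SLC3A2, and is reduced inside to cysteine. Cysteine limits the synthesis of glutathione, an antioxidant that hepatocytes hold at high concentration and use to conjugate drugs and to reduce peroxides. Many genes of the pathway carry antioxidant response elements, bound by the transcription factor NRF2 when its inhibitor KEAP1 lets it go, and the cystine transporter is also induced through ATF4 when amino acids are short.

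Promoter sequences are shown because most of these genes are known as targets of the same factor. In the fit over all probe sets SLC3A2 and NQO1 were called lower in DEGS1 against scramble and against SPTLC123. GCLC was called against SPTLC123 only. GCLM and TXNRD1 were not called there, but a separate fit on 1 probe set per gene, given below, called GCLM. A link between the core and the changes was not tested. RefSeq (GRCh38.p14) promoter entries were searched for 6 of the 9 genes, with 9 start sites. SLC7A11 and GSS had no entry, and GSR was left out of the search. The letters TGACNNNGC, the core of the antioxidant response element, were sought on both strands in the 250 bases before each start. They were found at 4 start sites of 3 genes, GCLM, SLC3A2 and TXNRD1, and in 10.9% of all 35116 promoters of that length. The 150 bases before the start follow, 5′ to 3′ on the gene's strand, with the core in capitals.
SLC3A2, chr11:62881549-62881698, plus strand: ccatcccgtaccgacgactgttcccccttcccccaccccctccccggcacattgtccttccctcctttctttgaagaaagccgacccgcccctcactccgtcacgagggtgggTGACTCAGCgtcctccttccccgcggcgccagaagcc
GCLM, chr1:93909431-93909580, minus strand: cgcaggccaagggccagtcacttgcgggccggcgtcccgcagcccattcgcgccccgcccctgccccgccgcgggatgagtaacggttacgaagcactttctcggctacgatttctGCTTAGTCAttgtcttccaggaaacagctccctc
TXNRD1, chr12:104215629-104215778, plus strand: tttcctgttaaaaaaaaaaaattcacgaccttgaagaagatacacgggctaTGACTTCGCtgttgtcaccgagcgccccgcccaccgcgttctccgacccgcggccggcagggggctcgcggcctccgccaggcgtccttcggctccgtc
TXNRD1, chr12:104286882-104287031, plus strand: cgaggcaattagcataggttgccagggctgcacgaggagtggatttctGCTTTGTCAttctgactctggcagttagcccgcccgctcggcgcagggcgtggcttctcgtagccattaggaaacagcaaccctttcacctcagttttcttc
GCLC, chr6:53545102-53545251, minus strand: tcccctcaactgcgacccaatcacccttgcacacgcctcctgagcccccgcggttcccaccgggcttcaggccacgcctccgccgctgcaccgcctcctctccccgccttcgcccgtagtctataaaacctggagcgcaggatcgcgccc
NQO1, chr16:69726561-69726710, minus strand: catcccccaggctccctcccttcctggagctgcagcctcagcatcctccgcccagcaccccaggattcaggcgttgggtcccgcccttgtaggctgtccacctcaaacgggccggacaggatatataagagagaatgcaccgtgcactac
The core of SLC3A2 reads TGACTCAGC, 37 to 29 bases before the start, and its first letters are also the AP-1 site TGACTCA, which 4.2% of all promoters hold. In GCLM the core lies on the opposite strand, printed as GCTTAGTCA, 34 to 26 bases before the start. The first TXNRD1 window holds TGACTTCGC and the second holds GCTTTGTCA, again the opposite strand. The letters TGATGNAA, the core of the amino acid response element to which ATF4 binds, were in 0 of the 9 windows and in 3.14% of all promoters. The windows of GCLC, NQO1 and SRXN1, and those before the SLC3A2 starts at 62856109 and 62880896, held neither core. This says only that these letters were not in those stretches.

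The siRNA targets checked the labels. SPTLC1 kept 20.7% and SPTLC2 48.4% of the scramble signal in SPTLC123, and DEGS1 kept 7.55% in its own knockdown. All 9 measured hepatocyte markers were brighter than the median probe set, and their summed level ran from 16.6 to 16.7 (log2 intensity) in scramble, from 16.3 to 16.4 in SPTLC123 and from 16.5 to 16.6 in DEGS1. Of the markers of other liver cells, 2 of 5 for stellate cells, 2 of 5 for endothelium, 1 of 4 for macrophages and leukocytes and 4 of 5 for cholangiocytes were brighter than it. On 3 arrays, SPTLC123 replicate 3 and DEGS1 replicates 2 and 3, the 5′ end of control transcripts was weak. The actin 3′ minus 5′ difference was 1.15 to 1.31 there and 0.40 to 0.56 on the other arrays, and that of GAPDH 0.25 to 0.40 against -0.09 to 0.01. These arrays therefore stand apart in a way that moves with the groups, and DEGS1 keeps 1 array in a fit without them, assumed to vary like the other groups.

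The cystine transporter genes and NQO1 were called lower in DEGS1 than in scramble, and no member was called lower in SPTLC123 than in scramble. The NQO1 call was on 210519_s_at only, and DEGS1 replicates 2 and 3 are arrays with weak 5′ signal. In DEGS1 against scramble, 4 of the 20 member probe sets were called at an adjusted p under 0.05 in limma's test over all probe sets, every one lower, beside 1.60% of all probe sets called lower. They belonged to SLC7A11 (2 probe sets), SLC3A2 and NQO1. Among the probe sets with a mean above the median of all, the background was 2.97%. Every DEGS1 array lay below every scramble array in 12 of the 20, beside 10.8% of all probe sets. The members were chosen with earlier results of these data known, so these shares are a description only. The median log2 change of the members was -0.54, against -0.00 over all probe sets. In SPTLC123 against scramble the median was 0.03 against -0.02, 1 probe set was called higher (of NQO1), beside 2.63% of all, and none was called lower, with 3 members at an unadjusted p under 0.05.

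**Figure D1:**
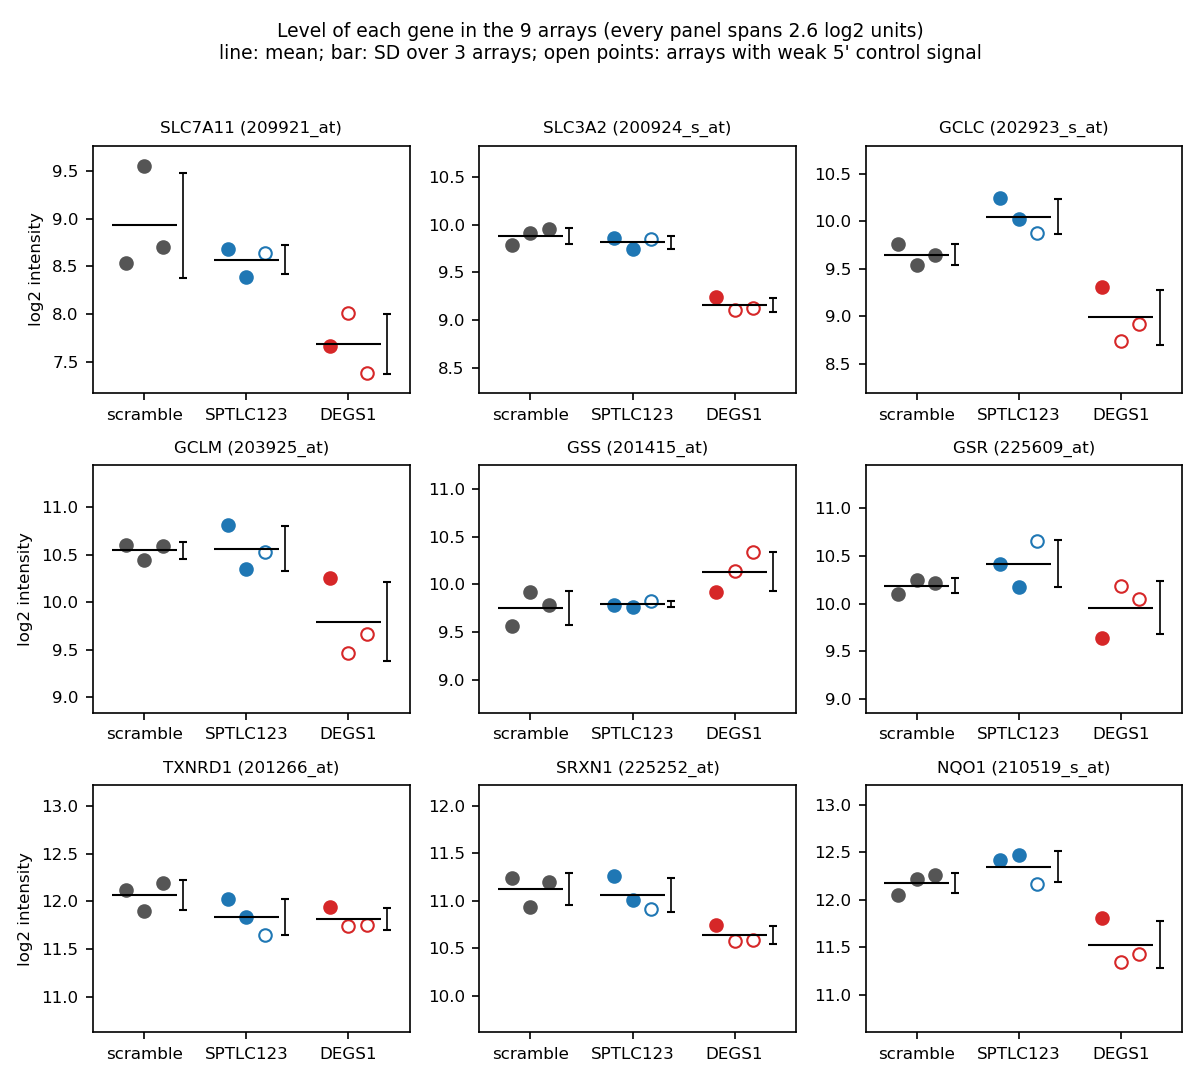
Log2 intensity of the highest probe set of each of the 9 genes on every array, by group; lines are group means, bars the SD over 3 arrays, and open points the arrays with weak 5′ control signal. DEGS1 arrays of SLC7A11, SLC3A2, GCLC, GCLM, SRXN1 and NQO1 sit below every scramble array, those of GSS sit level with or above the highest, and those of GSR and TXNRD1 overlap scramble.

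Both genes of the cystine transporter read lower in DEGS1 than in scramble. SLC7A11, the light chain that carries cystine, was measured by 3 probe sets. On 209921_at, the brightest, scramble arrays read 8.53, 9.55 and 8.70 (log2 intensity), SPTLC123 arrays 8.68, 8.39 and 8.64, and DEGS1 arrays 7.66, 8.01 and 7.38. The DEGS1 arrays were the lowest of all and scramble replicate 2 stood well above the others. SLC7A11 fell by 1.25 ± 0.26 (SE, n = 3 arrays a group) in DEGS1 against scramble, to 42.2% of the scramble signal (limma, adjusted p = 0.0357). The change was -0.93 (adjusted p = 0.0574) without scramble replicate 2, -1.36 (adjusted p = 0.0815) without scramble replicate 3, -1.41 (adjusted p = 0.0650) without DEGS1 replicate 2 and -1.09 (adjusted p = 0.148) without DEGS1 replicate 3. The call held in 11 of 18 alternative settings and the direction in all of them. It was also lost with log2(value + 16) (-1.19, adjusted p = 0.0501), in a fit of only the 2 groups (adjusted p = 0.0917) and without the 3 arrays with weak 5′ signal. On 207528_s_at, a dimmer probe set, the change was -1.28 ± 0.26 (adjusted p = 0.0342), and leaving out any array of either group but DEGS1 replicate 1 gave an adjusted p from 0.0647 to 0.139. On 217678_at the change was -1.03 ± 0.24 and missed the threshold (adjusted p = 0.0549). On all 3 probe sets the DEGS1 arrays lay below every other array, except that on 207528_s_at DEGS1 replicate 1 lay above SPTLC123 replicate 3.

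SLC7A11 in SPTLC123 was not separated from scramble: on 209921_at the change was -0.36 ± 0.26, with a 95% interval from -0.94 to 0.22. Without scramble replicate 2 it was -0.05, and on 217678_at the change turned from -0.15 to 0.15. The dimmer 207528_s_at did not move in this way, at -0.504 over all arrays (adjusted p = 0.401) and -0.499 without scramble replicate 2. Without the 3 arrays with weak 5′ signal it was at -0.225. The log2 difference of DEGS1 from SPTLC123 on 209921_at was -0.89 ± 0.26 and not called over all arrays (adjusted p = 0.109). Without scramble replicate 2 the difference was the same and was called (adjusted p = 0.0302), since only the spread of the fit changed. Without SPTLC123 replicate 1, 2 or 3 or DEGS1 replicate 1 or 2 it ran from -1.05 to -0.83. The adjusted p then ran from 0.0825 to 0.315. Without DEGS1 replicate 3, the lowest DEGS1 array at 7.38, the difference was smaller than any of these, and its value is not given here.

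SLC3A2, the heavy chain that brings SLC7A11 to the membrane, had little spread between arrays. Its single probe set read 9.79, 9.91 and 9.95 in scramble, 9.86, 9.74 and 9.85 in SPTLC123, and 9.24, 9.11 and 9.12 in DEGS1. Scramble and SPTLC123 arrays interleaved, and all DEGS1 arrays lay clearly under both. SLC3A2 fell by 0.73 ± 0.09 against scramble, to 60.4% (adjusted p = 0.00372), and fell by 0.66 ± 0.09 against SPTLC123, to 63.3% (adjusted p = 0.00414). The change of SPTLC123 against scramble was -0.07 ± 0.09, with an interval from -0.26 to 0.13. Both calls held in 17 of 18 alternative settings each; the exception left out the 3 arrays with weak 5′ signal, where the changes were -0.64 (adjusted p = 0.125) and -0.56 (adjusted p = 0.182).

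The cystine transporter shares SLC3A2 with other light chains, and 5 of 5 of these were measured. SLC7A7, which exchanges basic against neutral amino acids, fell by 1.03 ± 0.10 in SPTLC123 (adjusted p = 0.00103) and fell by 1.06 ± 0.10 in DEGS1 (adjusted p = 0.00161). Its scramble arrays read 8.37, 8.39 and 8.59, and the 6 knockdown arrays read from 7.26 to 7.51. SLC7A6 fell by 0.57 ± 0.11 in DEGS1 against scramble (adjusted p = 0.0264). SLC7A5, the large neutral amino acid transporter, fell by 0.91 ± 0.16 in DEGS1 against SPTLC123 (adjusted p = 0.0172), and its change against scramble was -0.62 ± 0.16 (adjusted p = 0.0738). The 5 light chains had a median of -0.57 in DEGS1 against scramble, beside -0.01 over all genes, and -0.03 in SPTLC123. Without the 3 arrays with weak 5′ signal SLC7A7 in DEGS1 was still called, at -1.13 (adjusted p = 0.0261), and SLC7A5 was called against scramble at -0.95 (adjusted p = 0.0442).

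Of the genes of glutathione synthesis, GCLC was called, and only in DEGS1 against SPTLC123. GCLC is the catalytic subunit of glutamate-cysteine ligase, the rate-limiting enzyme. On 202923_s_at it read 9.76, 9.54 and 9.65 in scramble, 10.24, 10.03 and 9.88 in SPTLC123, and 9.31, 8.75 and 8.92 in DEGS1. The groups did not overlap: every SPTLC123 array was above every scramble array and every DEGS1 array was below. GCLC was lower in DEGS1 than in SPTLC123 by a log2 difference of -1.06 ± 0.15, or 48.0% of its signal (adjusted p = 0.00689), and 202922_at gave -0.91 ± 0.14 (adjusted p = 0.0112). The second of these was -0.86 (adjusted p = 0.0559) without DEGS1 replicate 2 and -0.85 (adjusted p = 0.0548) without DEGS1 replicate 3. Neither difference from scramble was called: GCLC in SPTLC123 was at 0.40 ± 0.15 (interval 0.06 to 0.74, adjusted p = 0.222), and in DEGS1 at -0.66 ± 0.15 (adjusted p = 0.0526). A further probe set, 1555330_at, was dimmer than the median probe set with values from 3.55 to 4.37, and its groups overlapped.

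GCLM, the modifier subunit that raises the affinity of GCLC for glutamate, had probe sets that disagreed. On 203925_at scramble arrays read 10.60, 10.45 and 10.59, SPTLC123 arrays 10.81, 10.35 and 10.53, and DEGS1 arrays 10.26, 9.46 and 9.67. The DEGS1 arrays were the lowest, with replicate 1 well above the other two. The change in DEGS1 against scramble was -0.75 ± 0.20 (adjusted p = 0.0769), and against SPTLC123 -0.77 ± 0.20 (adjusted p = 0.0726). The other probe sets, 236140_at and 234986_at, gave 0.08 and -0.13 against scramble with overlapping arrays. Without the 3 arrays with weak 5′ signal 203925_at was at -0.29 and 236140_at turned to -0.25, and with the actin 3′ minus 5′ difference as a covariate they were at -0.49 and -0.22. GCLM in SPTLC123 was at 0.02 ± 0.20, with an interval from -0.43 to 0.46.

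GSS, glutathione synthetase, which joins glycine to the dipeptide, moved apart from the ligase. It read 9.57, 9.92 and 9.78 in scramble, 9.78, 9.76 and 9.82 in SPTLC123, and 9.92, 10.14 and 10.33 in DEGS1 on 201415_at. The lowest DEGS1 array was level with the highest scramble array to the second decimal. The change in DEGS1 was 0.38 ± 0.13 (interval 0.10 to 0.66, adjusted p = 0.144) and 0.32 ± 0.11 on 211630_s_at (adjusted p = 0.166); neither was called.

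**Figure D2:**
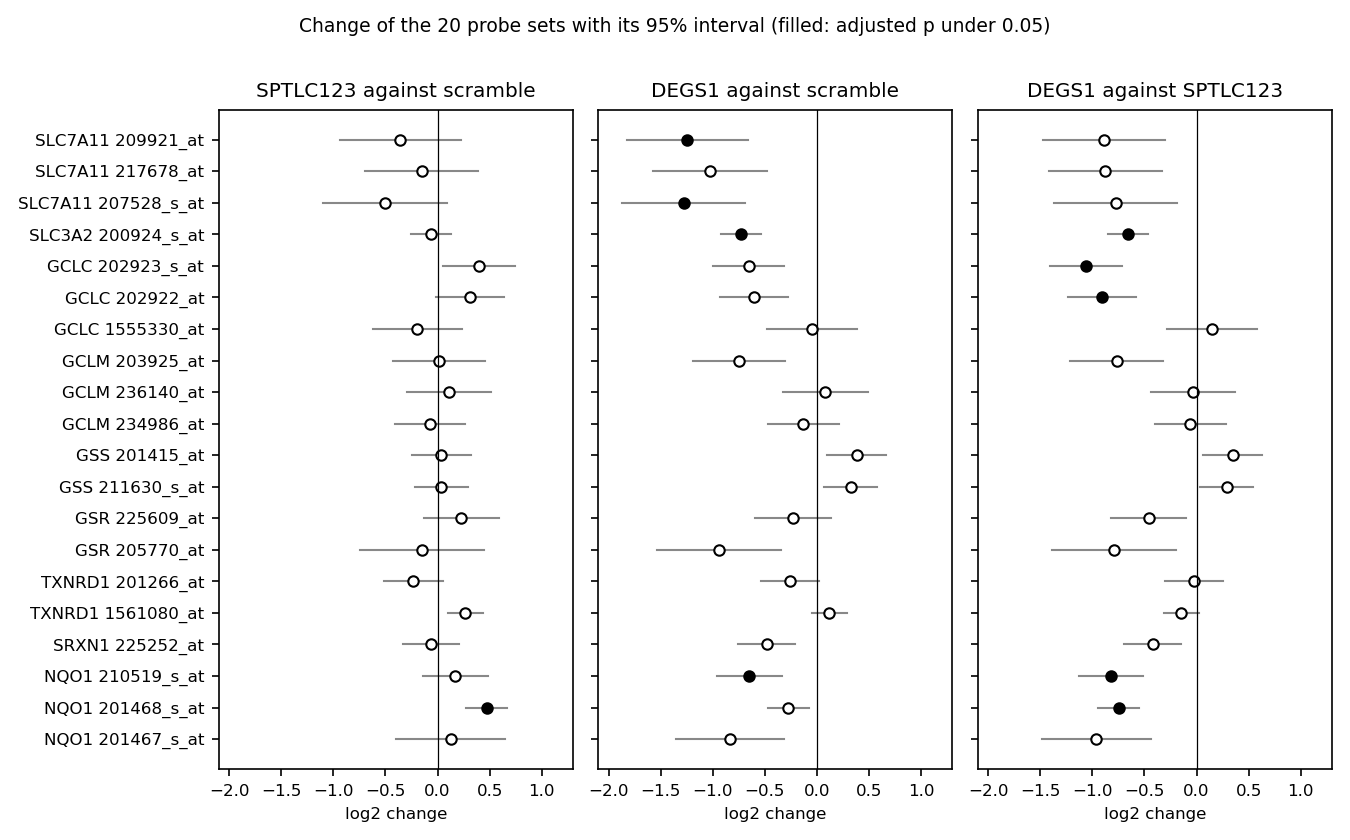
Log2 change of each of the 20 probe sets with its 95% interval, in a panel for each of the 3 comparisons; filled points have an adjusted p under 0.05. SLC3A2 and NQO1 were called in both comparisons that hold DEGS1, and the probe sets of GSS lie on the opposite side of 0 from SLC7A11.

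The genes that reduce disulphides and overoxidised peroxiredoxins did not pass the threshold over all probe sets. GSR, glutathione reductase, read 10.10, 10.25 and 10.21 in scramble, 10.42, 10.17 and 10.66 in SPTLC123, and 9.64, 10.18 and 10.05 in DEGS1 on 225609_at, and its groups overlapped. The change in DEGS1 was -0.23 ± 0.16 there (adjusted p = 0.471) and -0.94 ± 0.26 on 205770_at (adjusted p = 0.0933). Against SPTLC123 these probe sets gave -0.46 ± 0.16 (adjusted p = 0.178) and -0.79 ± 0.26 (adjusted p = 0.156). The mean of the GSR probe sets was called by limma, at -0.59 against scramble (adjusted p = 0.00745) and -0.63 against SPTLC123 (adjusted p = 0.00481). TXNRD1, the cytosolic thioredoxin reductase and a selenoprotein, read 12.12, 11.90 and 12.19 in scramble, 12.03, 11.84 and 11.65 in SPTLC123, and 11.94, 11.74 and 11.75 in DEGS1. Its knockdown arrays overlapped scramble and each other: the changes were -0.23 ± 0.12 (interval -0.51 to 0.05) in SPTLC123 and -0.26 ± 0.12 (interval -0.54 to 0.02) in DEGS1. Its other probe set, 1561080_at, had values from 2.70 to 3.06 and the same value, 2.84, on all 3 DEGS1 arrays.

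SRXN1, sulfiredoxin, which restores overoxidised peroxiredoxins, read 11.24, 10.93 and 11.20 in scramble, 11.26, 11.01 and 10.92 in SPTLC123, and 10.75, 10.58 and 10.59 in DEGS1. Every DEGS1 array lay below all other arrays. The change against scramble was -0.48 ± 0.12 (interval -0.75 to -0.21) and missed the threshold (adjusted p = 0.0659), as did that against SPTLC123, -0.42 ± 0.12 (adjusted p = 0.105).

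NQO1, a quinone reductase and a standard readout of NRF2, was called on different probe sets in the 2 knockdowns. On 201468_s_at it read 11.38, 11.35 and 11.54 in scramble, 11.93, 11.84 and 11.92 in SPTLC123, and 11.25, 11.10 and 11.11 in DEGS1. The 3 groups formed 3 separate bands. NQO1 rose by 0.47 ± 0.09 in SPTLC123, to 139% of scramble (adjusted p = 0.0178), the 1 member call of that comparison. DEGS1 against scramble was -0.28 ± 0.09 on that probe set (adjusted p = 0.131). On 210519_s_at scramble arrays read 12.05, 12.22 and 12.26, SPTLC123 arrays 12.41, 12.47 and 12.17, and DEGS1 arrays 11.81, 11.35 and 11.43. Here DEGS1 fell by 0.65 ± 0.14 against scramble, to 63.7% (adjusted p = 0.0387), while SPTLC123 overlapped scramble at 0.17 ± 0.14 (adjusted p = 0.640). Against SPTLC123 both probe sets were called, at -0.75 ± 0.09 (adjusted p = 0.00256) and -0.82 ± 0.14 (adjusted p = 0.0139). The dimmest probe set of NQO1, 201467_s_at, was not called in any comparison, at -0.84 ± 0.23 in DEGS1 against scramble (adjusted p = 0.0915), -0.96 ± 0.23 against SPTLC123 (adjusted p = 0.0579) and 0.13 ± 0.23 in SPTLC123 against scramble. The call of 210519_s_at against scramble held in 8 of 18 alternative settings: without any 1 scramble array, DEGS1 replicate 2 or DEGS1 replicate 3 the change ran from -0.71 to -0.56 and the adjusted p from 0.0722 to 0.158. The rise of 201468_s_at in SPTLC123 held in 11 of 16, and was 0.44 to 0.46 with an adjusted p from 0.0628 to 0.0734 without scramble replicate 1 or 2 or SPTLC123 replicate 1 or 3. Against SPTLC123, 210519_s_at ran from -0.79 to -0.73 with an adjusted p from 0.0617 to 0.0699 without SPTLC123 replicate 1 or 2 or DEGS1 replicate 2 or 3.

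In DEGS1 against SPTLC123, 5 of the 20 probe sets were called lower, beside 2.11% of all probe sets and 3.92% of the brighter ones, and in 11 of 20 every DEGS1 array lay below every SPTLC123 array, beside 9.48%. By gene, on the brightest probe set, 3 of 9 were called lower in DEGS1 against scramble (SLC7A11, SLC3A2 and NQO1), beside 2.53% of all genes lower and 2.63% higher. Against SPTLC123 the called genes were GCLC, SLC3A2 and NQO1, again 3 of 9, beside 2.99% lower and 2.38% higher. In SPTLC123 against scramble 0 of 9 were called by limma, beside 3.47% of all genes higher and 2.95% lower, with 1 of 9 at an unadjusted p under 0.05. These comparisons share arrays, so their values are not independent of each other, and the members were chosen with earlier results of these data known.

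A separate fit on 1 probe set per gene, with fewer tests and its own moderated spread, called more members. In it GCLC (adjusted p = 0.0176), GCLM (adjusted p = 0.0276) and SRXN1 (adjusted p = 0.0275) joined the called genes of DEGS1 against scramble, giving 6 of 9 beside 5.04% of all genes called lower. Against SPTLC123 this fit called 5 of 9, with GCLM (adjusted p = 0.0258) and SLC7A11 (adjusted p = 0.0421) added, beside 4.96%. Their log2 changes were those given above.

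Probe sets of 1 gene parted where the arrays with weak 5′ signal did. For GSR, the DEGS1 arrays with weak 5′ signal differed from the other DEGS1 array by -0.82 (log2) on 205770_at and by 0.47 on 225609_at, and within SPTLC123 the same differences were -0.77 and 0.37. For NQO1 they were -0.75 and -0.64 on 201467_s_at, -0.42 and -0.27 on 210519_s_at, and -0.15 and 0.04 on 201468_s_at. For GCLC they were -0.47 and -0.26 on 202923_s_at, and -0.33 and -0.13 on 202922_at. For SLC7A11 they were -0.59 and -0.84 on 207528_s_at, against 0.03 and 0.10 on 209921_at. Without these arrays the change in DEGS1 against scramble was -0.40 on 205770_at and -0.34 on 201467_s_at, and DEGS1 replicate 1 lay below every scramble array on both. The part of the weak 5′ signal in these differences was not tested. SLC3A2, at -0.13 and 0.05, and 209921_at of SLC7A11 differed little between the 2 kinds of array.

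**Figure D3:**
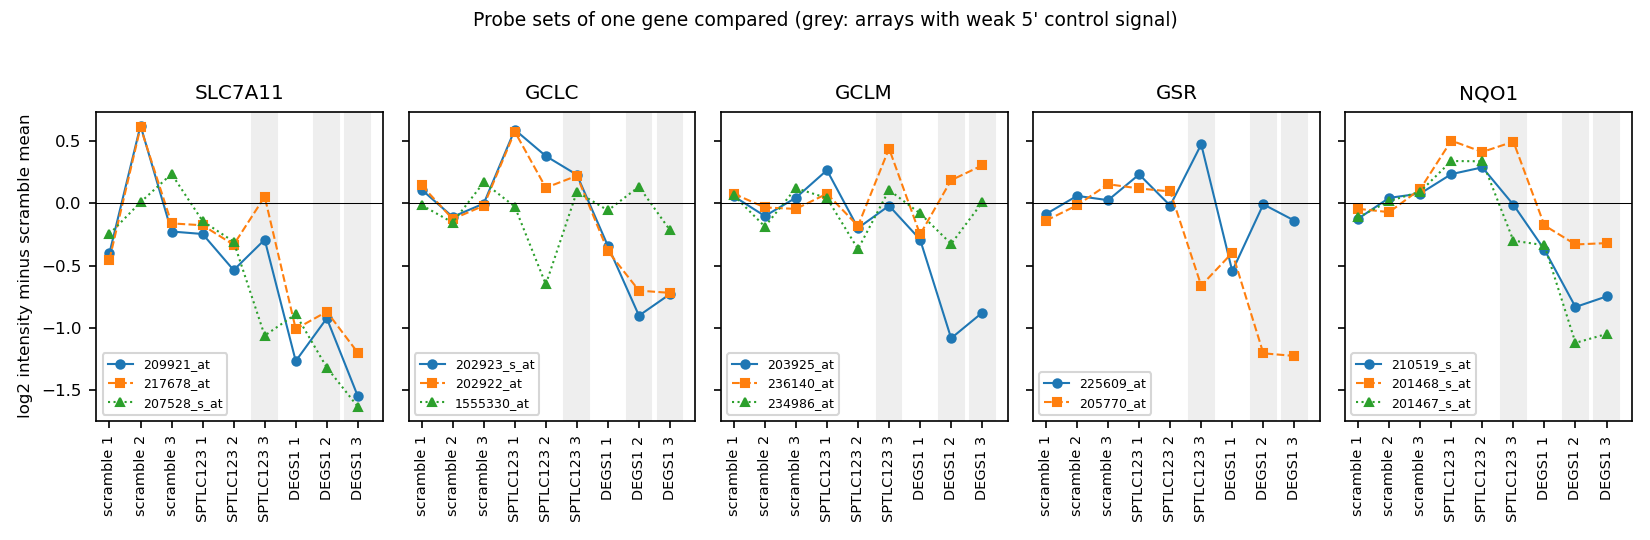
Log2 intensity minus the scramble mean on each of the 9 arrays for every probe set of SLC7A11, GCLC, GCLM, GSR and NQO1, with grey bands over the arrays with weak 5′ control signal. The lines of GSR, and of 203925_at and 236140_at of GCLM, lie farthest apart in grey bands; both brighter SLC7A11 probe sets peak in scramble replicate 2.

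Without these arrays 0 of the 20 member probe sets were called by limma in any comparison, in a fit that keeps 1 DEGS1 array. The calls over all probe sets fell from 1869 to 193 in DEGS1 against scramble and from 2017 to 341 against SPTLC123. The values of the called genes stayed negative: -1.27 for SLC7A11 (adjusted p = 0.243) and -0.37 for NQO1 on 210519_s_at (adjusted p = 0.404) against scramble, and -0.83 for GCLC against SPTLC123 (adjusted p = 0.0844). Within the 3 weak arrays alone, DEGS1 minus SPTLC123 was -1.04 for GCLC, -0.94 for SLC7A11, -0.73 for SLC3A2 and -0.78 for NQO1. With the actin 3′ minus 5′ difference as a covariate, 4 member probe sets were called in DEGS1 against scramble, of SLC7A11 (2 probe sets), SLC3A2 and GSR, and NQO1 was not (-0.43, adjusted p = 0.0587). That fit called 10 in DEGS1 against SPTLC123 and 2 in SPTLC123 against scramble, where GCLC joined NQO1 at 0.50 (adjusted p = 0.0131). Its calls over all probe sets were 3509 and 4591 in these comparisons, beside 2017 and 2466 without the covariate. In DEGS1 against scramble they were 1459 beside 1869.

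**Figure D4:**
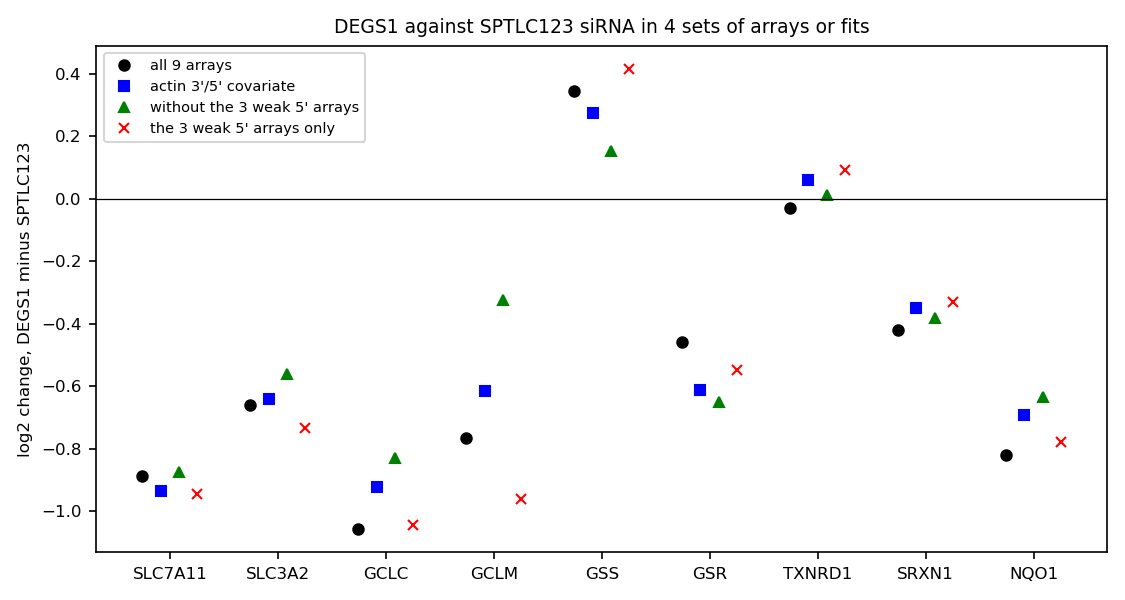
Log2 difference of DEGS1 minus SPTLC123 for the highest probe set of each gene in all 9 arrays (circles), with the actin covariate (squares), without the 3 arrays with weak 5′ signal (triangles) and within those 3 arrays only (crosses). The points of SLC7A11 lie close together, those of GCLM run from -0.96 to -0.32, and those of TXNRD1 lie on both sides of 0.

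The genes around the members were read from 11 lists, in which 136 of 143 genes were measured. Outside the members, 8 of 136 were called lower and 2 higher in DEGS1 against scramble, beside 2.53% and 2.63% of all genes. In DEGS1 against SPTLC123, 12 were lower and 2 higher, beside 2.99% and 2.38%. In SPTLC123 against scramble 5 were lower and 6 higher, beside 2.95% and 3.47%. Of these calls, in the same order, 1 of 10, 3 of 14 and 8 of 11 were also made without the 3 arrays with weak 5′ signal, and 8 of 10, 10 of 14 and 9 of 11 without scramble replicate 2.

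Among NRF2 and its regulators (11 genes), NRF2 itself (NFE2L2) was not called, at 0.22 ± 0.17 in SPTLC123 and -0.27 ± 0.17 in DEGS1. DPP3, which competes with NRF2 for KEAP1, rose by 0.54 ± 0.08 in SPTLC123 (adjusted p = 0.00790) and by 0.52 ± 0.08 in DEGS1 (adjusted p = 0.0133). KEAP1 was higher in DEGS1 than in SPTLC123 by 0.47 ± 0.11 (adjusted p = 0.0459), a call lost without scramble replicate 2. It read 9.06 in DEGS1 replicate 1, and 9.27 and 9.40 in DEGS1 replicates 2 and 3, which have weak 5′ signal. Its SPTLC123 arrays read 8.78, 8.77 and 8.78, and scramble ran from 8.85 to 9.06. Of 14 other NRF2 targets 0 were called by limma in DEGS1 against scramble, with 3 at an unadjusted p under 0.05, and 3 were lower against SPTLC123. UGDH, which makes UDP-glucuronate, rose by 0.69 ± 0.09 in SPTLC123 (adjusted p = 0.00410) and was lower in DEGS1 than there, at -0.88 ± 0.09 (adjusted p = 0.00165). The list's median was -0.19 in DEGS1 against scramble and -0.06 in SPTLC123, beside -0.01 and -0.03 over all genes.

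The peroxidases and glutaredoxins (10 genes) went several ways. GPX2, a selenium peroxidase, rose by 1.18 ± 0.17 in SPTLC123 (adjusted p = 0.00510), with arrays at 11.26, 11.30 and 11.27 against scramble arrays from 9.86 to 10.44. GPX8, of the endoplasmic reticulum, fell by 1.95 ± 0.28 in SPTLC123 (adjusted p = 0.00516), and GLRX, cytosolic glutaredoxin, fell by 1.33 ± 0.20 in SPTLC123 (adjusted p = 0.00738) and fell by 1.34 ± 0.20 in DEGS1 (adjusted p = 0.0108). GPX4, which reduces lipid peroxides with glutathione, was at -0.06 ± 0.09 and -0.11 ± 0.09 and was not called. Of 15 glutathione transferases MGST2 fell by 0.72 ± 0.11 in DEGS1 (adjusted p = 0.0127), and GSTA1 was lower in DEGS1 than in SPTLC123 at -1.12 ± 0.21 (adjusted p = 0.0236), although its further probe set differed the other way. CNDP2, a dipeptidase that splits cysteinylglycine, rose by 0.99 ± 0.10 in SPTLC123 (adjusted p = 0.00110) and 0.79 ± 0.10 in DEGS1 (adjusted p = 0.00510); its 2 further probe sets differed the other way in SPTLC123.

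Glutathione reductase and thioredoxin reductase run on NADPH, and 13 genes of its supply were measured. ME1, malic enzyme, rose by 0.58 ± 0.13 in SPTLC123 (adjusted p = 0.0346) and was lower in DEGS1 than there at -1.03 ± 0.13 (adjusted p = 0.00334). Without scramble replicate 2 its rise was 0.57 (adjusted p = 0.114). MTHFD2, of mitochondrial folate metabolism, fell by 1.56 ± 0.17 in DEGS1 (adjusted p = 0.00263). Its scramble arrays read 11.37, 12.13 and 11.87, SPTLC123 arrays 11.49, 11.42 and 11.47, and DEGS1 arrays 10.35, 10.24 and 10.11. Of 12 genes for selenoprotein synthesis, SECISBP2, which reads the selenocysteine insertion element, fell by 0.55 ± 0.11 in DEGS1 (adjusted p = 0.0297), or -0.48 (adjusted p = 0.0996) without scramble replicate 2, and SEPHS1 rose by 0.50 ± 0.09 in SPTLC123 (adjusted p = 0.0135). Of the 13 thioredoxins and reductases limma called 0 in each comparison, with 7 at an unadjusted p under 0.05 in SPTLC123 against scramble, 1 in DEGS1 against scramble and 3 in DEGS1 against SPTLC123.

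ATF4 targets showed how far 1 array set these values. Of 18 measured genes, 16 had their highest level in scramble replicate 2, the array in which SLC7A11 was also highest, beside 16.5% of all genes. Their median was -0.45 in DEGS1 against scramble and -0.60 in SPTLC123, and -0.27 and -0.32 without that array. ASNS, asparagine synthetase, read 10.66, 12.46 and 11.36 in scramble, 10.10, 10.13 and 10.35 in SPTLC123, and 9.69, 9.71 and 9.72 in DEGS1. It was called in DEGS1 at -1.79 ± 0.36 (adjusted p = 0.0318), the 1 called gene of that list. The call was also made without scramble replicate 2, and the size of the change there is not given here. Scramble replicate 2 stands apart for these genes and for SLC7A11 alike, and its part in the SLC7A11 result is given above by the value without it.

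**Figure D5:**
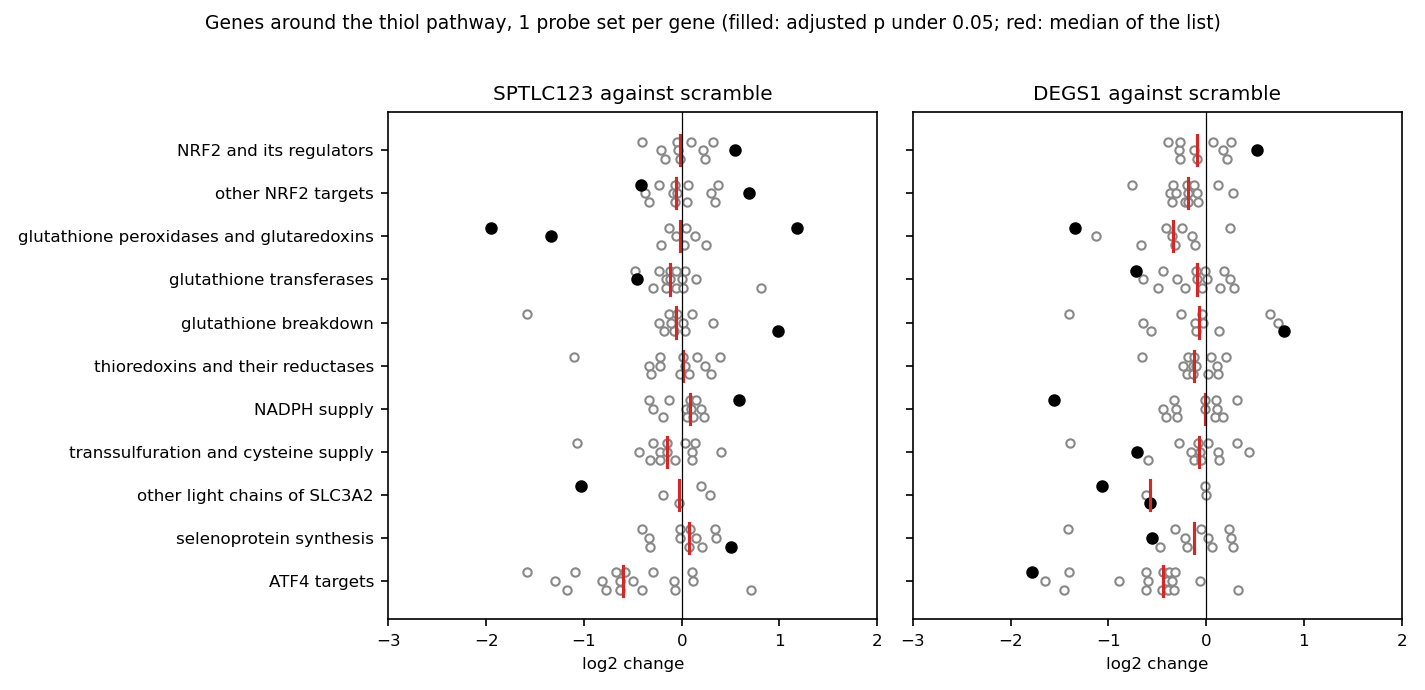
Log2 change of each gene of the 11 surrounding lists in SPTLC123 and in DEGS1 against scramble, 1 probe set per gene; filled points have an adjusted p under 0.05 and red bars are the medians. The other light chains of SLC3A2 have the lowest median in DEGS1, -0.57, and the ATF4 targets the lowest in SPTLC123, -0.60.

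Across the 9 arrays, which share their groups, the genes with the pattern most like SLC7A11 among 12637 candidates were TRMT11 (Pearson r = 0.977), EIF2A (0.975), S100P (0.974), FOXQ1 (0.965) and TMEM128 (0.964), and among the members SLC3A2 came first (0.860). For NQO1 they were NPW (0.995), MTMR12 (0.990), HNRNPF (0.989), TSHZ1 (0.989) and HBS1L (0.987), with GCLC (0.947), SLC3A2 (0.909) and GCLM (0.897) the nearest members. GSS ran against both, at -0.57 with SLC7A11 and -0.79 with NQO1. These coefficients describe 9 arrays of 3 groups and carry no test.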

How the data were processed

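RNA of Huh7 cells was measured on 9 Affymetrix arrays (1 colour, 3 per group). The deposited values are the authors' normalized linear intensity for each probe set. RMA, GCRMA 2.12.1 and limma 2.14.7 are named in the submitters' processing notes without their roles, so which method made the values is not given in the sources used here. Array medians ran from 27.92 to 30 and values from 4.88 to 27330.6, so no further normalization was applied. Arrays have no read depth; their number limits the precision, and a fold change of a dim probe set is compressed.

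Values were log2-transformed without a pseudocount. Of 54613 probe sets (62 controls left out), 41091 had 1 gene symbol in the platform annotation, 1801 several and 11721 were not listed. All of them entered a linear model of group means, fitted with limma 3.58.1 in R 4.3.3 (lmFit, eBayes, statmod 1.5.0 for the robust alternative), with 6 residual degrees of freedom. The tests are two-sided. Benjamini-Hochberg adjustment ran over all probe sets within a comparison. A probe set was called at an adjusted p under 0.05. Shares of all probe sets at an unadjusted p under 0.05 are not given here, so such counts have no background beside them. Changes are ± SE of the fit. A gene's level is that of its highest probe set by mean over 9 arrays, and levels are not compared between probe sets. The fit was tested on simulated data.

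The members, the 11 lists and the naming rule were chosen with earlier results of these data known. The rule names the members, up to 3 called genes per list by adjusted p, and the 5 genes most like SLC7A11 and NQO1. GPX4 and NFE2L2 were named after their values were seen. Listed genes without a value and the third targeted subunit were not analysed here. Same-numbered arrays correlated from -0.49 to 0.70 after removal of group means, over 0.1 in 3 of 9 pairs, so the numbers were not taken to pair the arrays. Promoters came from RefSeq (GRCh38.p14). For the lists, the fits without scramble replicate 2 and without the 3 arrays with weak 5′ signal were added after seeing the data.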

Additional observations from a re-analysis of the deposited data

How the results depend on the processing

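Member calls were recomputed under each alternative; the result called 1 probe set in SPTLC123 against scramble, 4 in DEGS1 against scramble and 5 in DEGS1 against SPTLC123. For SPTLC123 the count was 0 with 1 probe set per gene, with probe sets averaged by gene, at an adjusted p under 0.01 and without the 3 arrays with weak 5′ signal, and 2 with a variance trend and robust fit or the actin covariate. For DEGS1 against scramble it was 8 with dim probe sets left out, 14 with array weights, 2 in a fit of only the 2 groups, 1 at 0.01 and 0 without the 3 arrays. For DEGS1 against SPTLC123 it was 13 with array weights, 10 with the covariate, 3 at 0.01 and 0 without the 3 arrays. Leaving out each array gave 0 to 1, 1 to 12 and 3 to 11 calls. Both upper ends came without DEGS1 replicate 1, which leaves DEGS1 only arrays with weak 5′ signal. That fit called 9061 of all 54613 probe sets in DEGS1 against scramble and 7151 against SPTLC123, beside 1869 and 2017 with all arrays. With dim probe sets left out or with array weights, the calls over all probe sets are not given here. The replicate block gave 1, 6 and 6 calls, and NQO1 in DEGS1 against scramble lost its call under it.

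Among each gene's highest probe set and the other called ones, directions reversed only for values that were not called. In SPTLC123 against scramble TXNRD1 was 0.016 with the mean of its probe sets, GCLM -0.016 and GSS -0.0022 after quantile normalization, GSS -0.017 with the covariate, and SRXN1 0.0086 without the 3 arrays. In DEGS1 against SPTLC123 TXNRD1 was 0.036 after quantile normalization, 0.0604 with the covariate, 0.012 without the 3 arrays and 0.0915 within them. Leaving out each array gave -0.11 to 0.12 for GCLM, -0.0605 to 0.12 for GSS and -0.16 to 0.01 for SRXN1 in SPTLC123, and -0.12 to 0.065 for TXNRD1 in DEGS1 against SPTLC123. In DEGS1 against scramble 0 of 210 such values reversed. Signal near background limits 1555330_at of GCLC and 1561080_at of TXNRD1, and 3 arrays a group limit every value.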

Other observations

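A few further genes of the surrounding lists were called. EPHX1, microsomal epoxide hydrolase, fell by 0.42 ± 0.08 in SPTLC123 against scramble (limma, adjusted p = 0.0238), with arrays at 8.62, 8.58 and 8.68 against 9.11, 8.97 and 9.04 in scramble. GSTK1, a glutathione transferase of mitochondria and peroxisomes, fell by 0.46 ± 0.10 there (adjusted p = 0.0326; -0.40 and 0.113 without scramble replicate 2) and was higher in DEGS1 than in SPTLC123 by 0.47 ± 0.10 (adjusted p = 0.0345). OSGIN1 was lower in DEGS1 than in SPTLC123 at -0.59 ± 0.13 (adjusted p = 0.0443), and SELENOP, the selenium carrier that hepatocytes secrete, at -0.39 ± 0.09 (adjusted p = 0.0476). SLC1A4, a transporter of neutral amino acids with cysteine among them, fell by 0.71 ± 0.14 in DEGS1 against scramble (adjusted p = 0.0319). Its highest array was scramble replicate 2, at 9.17 against 8.67 and 8.81 in the other scramble arrays, and without it the change was -0.57 (adjusted p = 0.0804).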
